A study of Mus musculus with 2 samples.

Results

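The miR-29 family was read in the newborn mouse heart at its 4 loci, Mir29a, Mir29b-1, Mir29b-2 and Mir29c, which are 4 of the 1973 microRNA (miRNA) genes counted. The rule that picks the members uses gene names alone and no measured value. Hearts were taken from 2 B6NCrl pups at postnatal day 0, 1 heart to a library, and both pups came from pregnant female 1. Replicate 1 is pup 2 and replicate 2 is pup 3. Sex was not collected, and the labels name no treatment and no allele. With 1 group there was no condition to compare, so the levels, the ratios between loci and the difference between the pups are what the design allowed. A whole heart mixes cell types, so fewer cells of a type and less RNA per cell cannot be told apart.

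A miRNA is cut from a hairpin precursor into an arm from its 5′ side (5p) and an arm from its 3′ side (3p), and the loaded arm finds its targets through the seed, bases 2 to 8. The miR-29 miRNAs are known for repressing messenger RNAs of the extracellular matrix, among them fibrillar collagens, elastin and fibrillin, and in the heart they are known as antifibrotic miRNAs of cardiac fibroblasts. The 3p arm is the one that carries this activity. The loci stand in pairs that are known to be transcribed together.

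The mature arms show what the reads of each locus can and cannot tell apart. Below are the 3p arms from RefSeq (GRCm38.p6), written 5′ to 3′ with the seed in capitals.
miR-29a-3p: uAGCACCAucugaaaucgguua
miR-29c-3p: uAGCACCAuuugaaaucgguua
miR-29b-3p: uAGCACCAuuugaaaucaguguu
All of them have the seed AGCACCA, and no other mature miRNA of the RefSeq table has it. Counted from 1 at the 5′ end of the first arm named, miR-29a-3p and miR-29c-3p differ by a single substitution, C10U. miR-29c-3p and miR-29b-3p differ by G18A, U21G and A22U within the 22 nt that both have, and miR-29a-3p and miR-29b-3p by those 3 and C10U. The 23-nt miR-29b-3p is the same, base for base, at Mir29b-1 and Mir29b-2.

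The 5p arms have no seed in common, and each locus has a 5p sequence of its own.
miR-29a-5p: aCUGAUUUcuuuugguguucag
miR-29c-5p: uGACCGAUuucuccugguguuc
miR-29b-1-5p: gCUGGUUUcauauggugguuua
miR-29b-2-5p: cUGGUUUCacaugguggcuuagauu
The Mir29b-1 and Mir29b-2 5p arms are offset by 1 base. Over the 21 nt that line up they differ by U11C and U19C, counted along miR-29b-1-5p. None of the 5p arms occurs whole in the hairpin of another miRNA locus.

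The whole hairpins of the Mir29b loci are shown because a read can be assigned to one of them only where they differ. Capitals mark the mature arms.
Mir29b-1: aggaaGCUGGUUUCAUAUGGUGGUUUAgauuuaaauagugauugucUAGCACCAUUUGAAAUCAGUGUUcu
Mir29b-2: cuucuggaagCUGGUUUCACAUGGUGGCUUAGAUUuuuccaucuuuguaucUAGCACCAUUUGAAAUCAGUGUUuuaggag
Their longest shared stretch is 25 nt and covers the whole 3p arm. Mir29b-1 and Mir29c share 22 nt, Mir29b-2 and Mir29c share 19 nt, and Mir29a shares at most 14 nt with another member. With miRNA loci outside the family, no member shares more than 13 nt. Of the 22-nt windows of each hairpin, 5 of 50 in Mir29b-1, 4 of 60 in Mir29b-2, 1 of 67 in Mir29c and 0 of 67 in Mir29a occur at another miRNA locus. The rest of the genome was not searched.

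On GRCm38, Mir29a lies at chromosome 6, 31062660 to 31062747, minus strand, in no other annotated gene. Mir29b-1 lies 275 bp away on the same strand, at 31063023 to 31063093, and 2 of its bases overlap an exon of the long non-coding RNA Gm27019. Mir29b-2 lies at chromosome 1, 195037040 to 195037120, plus strand, and Mir29c at 195037547 to 195037634, with 426 bp between them. Both of these hairpins lie wholly within annotated exons of the non-coding host transcript A330023F24Rik on their own strand. On the opposite strand, both also lie wholly within annotated exons of Cd46, a complement regulator gene. Besides its partner, no miRNA gene of the tables lies within 100 kb of a member.

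Values are sense counts, or CPM, the count scaled to 1000000 sense counts on miRNA genes, with the SD over the pups (n = 2). Sense counts came to 2323450 for replicate 1 and 3487183 for replicate 2. Intervals are exact 95% intervals, Poisson for a level and Clopper-Pearson for a share, and they cover counting error alone: with no molecular identifiers, reads are not independent molecules. For a count of 0, a one-sided 95% limit of 3 counts was used instead, or 1.29 CPM in replicate 1 and 0.86 CPM in replicate 2. A read of under 30 nt covers 1 arm, so counts were not divided by hairpin length. The yield of reads per molecule of each miRNA was not measured, and the SD does not cover it. The libraries held the heart muscle miRNAs Mir208a, Mir208b and Mir499 at 9.01% and 8.89% of counts together, while the 5 neuronal loci with a row, of the Mir9 and Mir124a genes, were at 0 counts, although these are numbered copies and reads that fit several of them would not be counted.

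Mir29a was the most counted locus of the family, and Mir29c the next. In replicate 1 Mir29a had 703 counts, or 303 CPM (281 to 326), and in replicate 2 it had 1364 counts, or 391 CPM (371 to 412). Its mean was 347 ± 62.6 CPM, which ranked 108 among all genes. In replicate 1 Mir29c had 300 counts, or 129 CPM (115 to 145), and in replicate 2 it had 479, or 137 CPM (125 to 150). Its mean was 133 ± 5.83 CPM, at rank 144. The intervals of Mir29a and Mir29c were apart in both hearts.

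The Mir29b loci lay at the edge of detection. Mir29b-2 had 5 counts in each replicate, or 2.15 CPM (0.699 to 5.02) and 1.43 CPM (0.466 to 3.35). The count of Mir29b-1 was 4 in replicate 1, or 1.72 CPM (0.469 to 4.41), and 3 in replicate 2, or 0.86 CPM (0.177 to 2.51). Their means were 1.79 ± 0.508 CPM and 1.29 ± 0.609 CPM, and their intervals overlapped in both hearts, so their order was not detectable at this depth. At 2 CPM or more in both libraries, 2 of the 4 members were detected, Mir29a and Mir29c. Over all 1973 genes, 327 were detected by the same rule (16.6%). At 1 CPM Mir29b-2 also passed, which made 3 members.

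**Figure D1:**
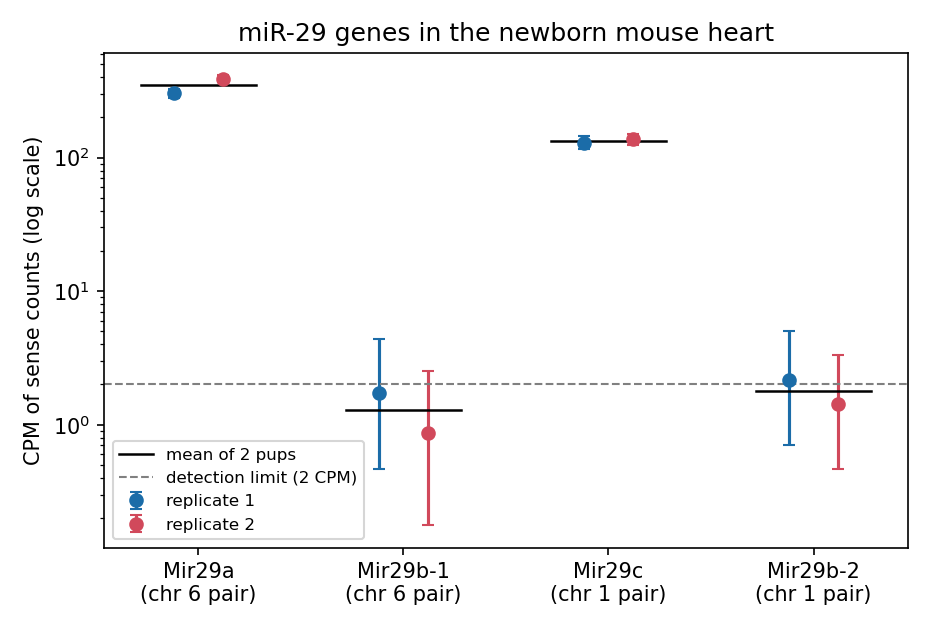
Level of each miR-29 locus in CPM of sense counts (log axis) in replicate 1 and replicate 2; points are single hearts, bars are exact Poisson 95% intervals of the count, black lines are means of 2 pups and the dashed line is the detection limit of 2 CPM. Mir29a (303 and 391 CPM) and Mir29c (129 and 137 CPM) stand far above Mir29b-1 and Mir29b-2, whose intervals cross the limit.

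Together the 4 loci held 1012 counts in replicate 1 and 1851 in replicate 2. That was 0.0436% (0.0409 to 0.0463%) and 0.0531% (0.0507 to 0.0556%) of sense counts, with a mean of 0.0483% ± 0.00673. Within these counts the chromosome 6 pair held 69.9% (66.9 to 72.7%) in replicate 1 and 73.9% (71.8 to 75.8%) in replicate 2, and the chromosome 1 pair the rest. Mir29a alone held 69.5% (66.5 to 72.3%) and 73.7% (71.6 to 75.7%). Mir29c held 29.6% (26.8 to 32.6%) and 25.9% (23.9 to 27.9%). For both loci the intervals of the 2 hearts overlapped, but overlap does not show equal shares, and a difference in share was not tested. Mir29b-1 and Mir29b-2 together held 0.889% (0.407 to 1.68%) and 0.432% (0.187 to 0.85%).

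**Figure D2:**
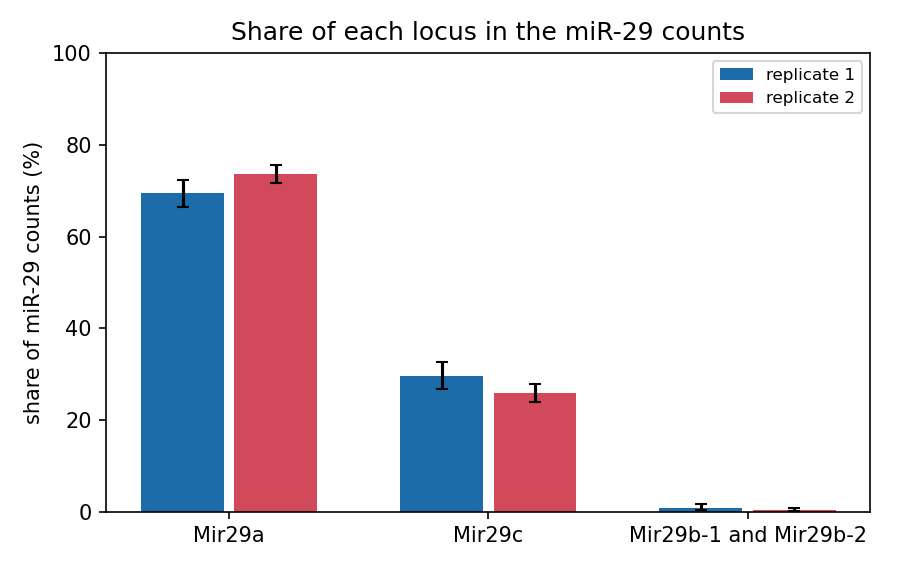
Share of the miR-29 counts (percent) held by Mir29a, Mir29c and both Mir29b loci together in each heart; bars are single libraries and error bars are exact Clopper-Pearson 95% intervals. Mir29a held 69.5% and 73.7%, Mir29c 29.6% and 25.9%, and the Mir29b loci under 1% in both hearts.

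The partners of each pair differed widely in counts. On chromosome 6, Mir29a exceeded Mir29b-1 176-fold in replicate 1 (68.3 to 647) and 455-fold in replicate 2 (155 to 2207.5), a mean log2 ratio of 8.14 ± 0.97. On chromosome 1, Mir29c exceeded Mir29b-2 60.0-fold (25.4 to 186) and 95.8-fold (40.8 to 296), a mean log2 ratio of 6.24 ± 0.477. The loci with an arm of their own on both sides were the high ones in both pairs. Mir29a exceeded Mir29c 2.34-fold (2.04 to 2.69) and 2.85-fold (2.56 to 3.17), a mean log2 ratio of 1.37 ± 0.199. These ratios were not tested: with 2 pups, the smallest p of an exact two-sided sign-flip permutation is 0.5.

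The Mir29b values leave out the reads that fit both loci. Reads that aligned to several places made up 36.6% of all reads in replicate 1 and 37.1% in replicate 2, and they were assigned to no gene. A full-length miR-29b-3p read aligns to both Mir29b loci. How many of the unassigned reads were miR-29b-3p, and from which arm the few assigned Mir29b reads came, was not measured, since counts are per gene. The share of miR-29b in the family and its ratio to its partners in each pair are therefore uncertain. For full-length reads of the 3p arm, the split between Mir29a and Mir29c rests on position 10, and the number of mismatches allowed in the alignment is not given in the sources used here.

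The same sequence feature was looked up over all miRNA genes with a mature arm in RefSeq, 916 of the 1973. An arm was called duplicated when the whole of it stood in the hairpin of another locus. Of 816 genes with no duplicated arm, the class of Mir29a and Mir29c, 260 were detected (31.9%). Their median was 0.359 CPM, and 96.4 CPM among those detected. Of 55 genes with 1 duplicated arm and 1 of their own, the class of Mir29b-1 and Mir29b-2, 32 were detected (58.2%), and the Mir29b loci were not among them. The median of these 55 was 9.9 CPM, and 70.4 CPM among those detected. The order of these medians therefore depends on which genes are taken, and with an arm called duplicated from 18 shared nt, the medians of detected genes were 94.3 and 109 CPM. Of 45 genes with all arms duplicated, 7 were detected (15.6%).

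Within their class Mir29b-2 ranked 34 and Mir29b-1 ranked 36 of the 55 genes by mean CPM. In 20 cases 2 such genes share an arm with each other. Summed over both genes, the Mir29b pair ranked 16 of 20, with 9 counts in replicate 1 and 8 in replicate 2. The pair of Mir16-1 and Mir16-2, cell cycle miRNAs, was the highest at 8181 and 11892 counts. Closest to the Mir29b pair were Mir19b-1 with Mir19b-2 (16 and 23 counts) and Mir365-1 with Mir365-2 (1 and 5 counts). The Mir19b loci are also on the list of antifibrotic genes given below. Other pairs with known roles in fibrosis lay higher. Mir30c-1 with Mir30c-2 had 376 and 522 counts, and Mir26a-1 with Mir26a-2 had 112 and 181. How the unassigned reads divide among these pairs is not known, so this order is of assigned reads only.

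**Figure D3:**
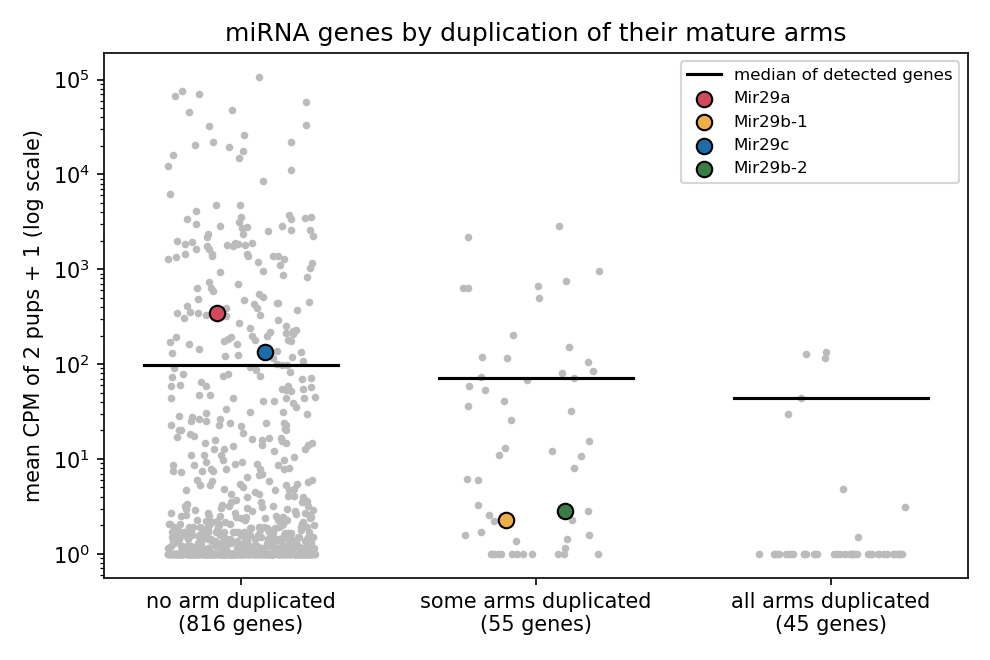
Mean CPM of 2 pups plus 1 (log axis) for 916 miRNA genes, split by whether the whole sequence of none, some or all of their mature arms also stands in the hairpin of another miRNA locus; grey points are genes, black lines are medians of the detected genes, and coloured points are the miR-29 loci. Mir29a and Mir29c lie above the median line of their class at 96.4 CPM, and Mir29b-1 and Mir29b-2 lie below the line of theirs, at ranks 36 and 34 of 55.

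No read was counted on the opposite strand of any member in either heart. This holds for most of the table: 306 of the 327 detected genes (93.6%) had 0 opposite-strand counts in both libraries. The rows of Mir29b-2 and Mir29c, which lie across from Cd46 exons, thus contained no reads from that strand.

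The Mir29a share of reads was higher in the library of replicate 2, and that of Mir29c was not shown to differ. The libraries, not conditions, were compared gene by gene with an exact two-sided binomial test, and p was adjusted by Benjamini-Hochberg over all 615 genes with a count. Its p covers counting error only and takes no account of the spread between animals, so at high counts it passes on small differences. It called 86 genes (14.0%), 55 higher in replicate 2 (8.94%) and 31 lower (5.04%), and 18 that also passed 1.5-fold (2.93%). Of the 4 members it called Mir29a only, at 1.29-fold in CPM (log2 ratio 0.37, adjusted p = 1.24e-06, exact binomial test). Mir29c had a log2 ratio of 0.09 (adjusted p = 0.883, exact binomial test), and Mir29b-1 and Mir29b-2, with 3 to 5 counts, had adjusted p = 0.817 and 0.888 by the same exact test. No member passed 1.5-fold and the test together. Whether the Mir29a difference is larger than that of Mir29c was not tested.

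For genes of this abundance the test passed more often. Among the 98 genes with a mean from 66.6 to 694 CPM, a range set after the values were seen, 24 were called (24.5%). Their median absolute log2 ratio was 0.14. The Mir29a ratio was equalled or exceeded in size by 11 of the 98, itself included, and that of Mir29c by 68. The coefficient of variation between the hearts was 18.1% for Mir29a, where the counts alone would give 3.28%, and 4.37% for Mir29c, where the counts alone would give 5.21%. With 1 library per pup, spread between animals and spread between library preparations cannot be told apart, and neither is part of counting error.

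**Figure D4:**
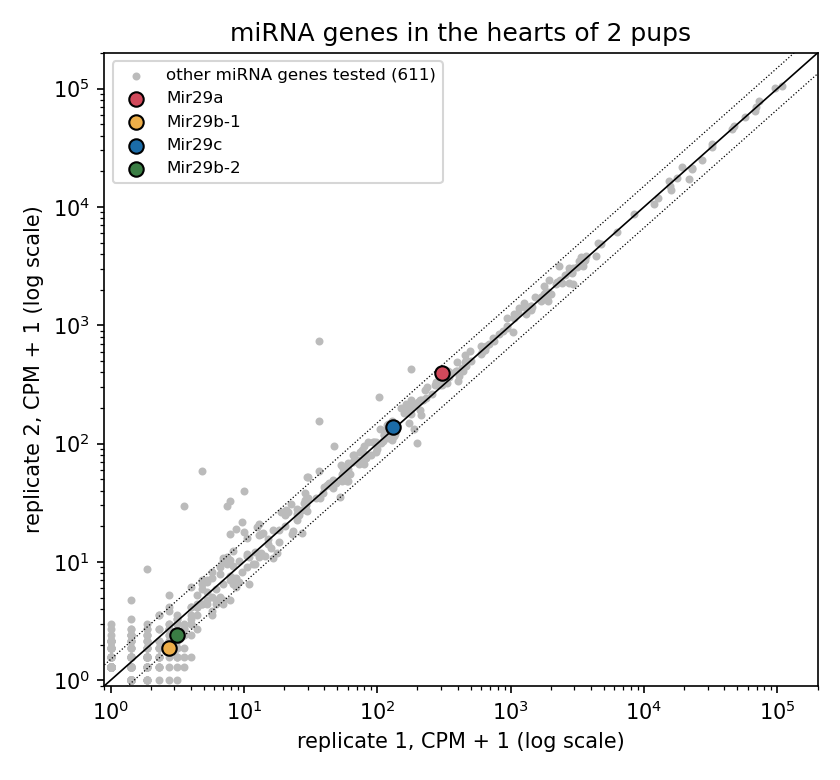
CPM plus 1 of each tested miRNA gene in replicate 1 and replicate 2 (both axes log); the solid line marks equal levels, dotted lines mark 1.5-fold, and coloured points are the miR-29 loci. Mir29a lies above the solid line and within the dotted ones, Mir29c lies on it, and the Mir29b loci lie among the genes of a few counts.

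Marker miRNAs of other cell types also differed between the libraries, in both directions. Of 6 epithelial miRNAs, Mir200a, Mir200b, Mir200c, Mir141, Mir429 and Mir205, 5 were higher in replicate 2 by the exact test, against 8.94% of all genes tested, and their summed share was 0.0204% in replicate 1 and 0.0574% in replicate 2. Of 5 fibroblast and mesenchymal miRNAs, Mir21a was higher (log2 ratio 0.17) and Mir214, Mir199a-1, Mir199a-2 and Mir199b did not pass. Their summed share was 2.13% and 2.39%. Most of this sum was Mir21a, at 19336.8 and 21826.8 CPM, against 1772.4 and 1842.2 CPM for Mir214, the next. All 11 markers were above 0 counts in both hearts. Some other markers were lower in replicate 2 by the same test, as were 5.04% of all genes tested. The heart muscle sum was 9.01% and 8.89%. Mir208a was lower (log2 ratio -0.19), while Mir208b (0.01) and Mir499 (0.03) did not pass. The endothelial Mir126a was lower at 10.8% and 10.6%. Of the blood miRNAs, at 0.0962% and 0.0865% together, Mir144 was lower, and Mir451a and Mir223 did not pass. The smooth muscle sum was 9.83% and 10.2%, with Mir143 higher and Mir145a not passing. The liver miRNA Mir122 did not pass. The part of these cells in the Mir29a difference was not tested.

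The other miRNAs known from work on cardiac fibrosis give the scale of the family. A list of 17 miRNA genes described as antifibrotic had a row under the listed symbol for 13. Of these 13, 12 were detected, 1 was higher in replicate 2 (Mir101b, log2 ratio 0.14) and 0 were lower. The listed symbol Mir18a had no row. The row of Mir18, detected at 1382.3 CPM and not called, was not matched to it and is not part of these values. Over all 1973 genes, 16.6% were detected. Of the 615 genes tested, 8.94% were higher and 5.04% lower, so 1 higher of 13 was near the background. The median level of the 13 was 40.2 CPM and their median log2 ratio 0.00, against 3.66 CPM and 0.04 over all genes tested. Most of the 13 are numbered copies, and reads that fit several copies would be left out of these levels. Among these 13, the most counted were Mir30a at 17676.8 CPM, Mir101b at 1368.2 CPM and Mir24-2 at 499 CPM. The antifibrotic muscle miRNA locus Mir133a-1 reached 20 and 25 counts, fewer than Mir29a and Mir29c. It is a numbered copy, beside Mir133a-2, and reads that fit both would be left out here too.

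A list of 10 miRNA genes described as profibrotic was detected in full, with a median level of 366 CPM. Only Mir125b-1 and Mir125b-2 of these are numbered copies, so the median levels of the lists cannot be compared directly. Of these 10, 2 were higher in replicate 2 and 1 was lower, beside the same 8.94% and 5.04%, and the median log2 ratio was -0.01. Mir21a, which promotes survival of cardiac fibroblasts, led at 20581.8 ± 1760.7 CPM, 59.3-fold over Mir29a. Mir208a, in a myosin heavy chain gene, followed at 14938.6 ± 1396.9 CPM and was the 1 that was lower in replicate 2 (log2 ratio -0.19). Mir503 was next at 1436.5 ± 19.7 CPM. Mir34a (404 ± 12.8 CPM), Mir223 (329 ± 8.35 CPM) and Mir328 (308 ± 2.21 CPM) lay within the SD of Mir29a. These ratios compare read counts of different miRNAs.

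The genes whose levels in the 2 hearts were most like those of each member were found by distance in log2(CPM + 1), over these 2 libraries only. For Mir29a they were Mir190a at 324 and 358 CPM (distance 0.163), Mir154 at 337 and 407 CPM (0.164) and Mir186 at 344 and 364 CPM (0.213). For Mir29c they were Mir490 at 131 and 139 CPM (0.026), Mir199b at 119 and 145 CPM (0.139) and Mir340 at 117 and 144 CPM (0.160). The Mir29b loci had too few counts for this.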

How the data were processed

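Small RNA libraries with inserts under 30 nt were made from total RNA of 2 hearts, per the labels. The authors deposited raw counts, the reads on each miRNA gene as whole numbers with no scaling, in 3 columns (both strands together, sense, opposite). Reads were placed on mm10 with GENCODE M4, per the sources used here. The aligner, counter and mismatch settings are not given in the sources used here. The columns have no header. Of the single-strand columns, the larger by total was taken as sense and used. The 4 summary rows were left out of totals; they held 11.5% and 10.5% of reads as unmapped and 5.93% and 5.62% as on no feature.

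Identifiers were matched to GENCODE M21 (GRCm38, the same assembly): 1894 of 1973 matched, and the other 79 had 0 counts. Sequences came from RefSeq (GRCm38.p6), where all 4 members matched, and hairpins of GENCODE M21 were added to search for shared stretches. For the test between the pups, library sizes were scaled with TMM (edgeR 4.0.16). CPM, ranks, log2 ratios and the 1.5-fold rule used the sense totals without TMM. The exact binomial test (SciPy 1.17.1) covered genes with at least 1 count. It was also run on simulated counts with counting error alone, which cannot show how it behaves where animals differ. Adjusted p under 0.05 was called. The pseudocount was 1 CPM. Alternatives were counts of both strands, totals of all reads, DESeq2 1.42.0 size factors, other filters and pseudocounts, and single libraries.

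The family and the lists were chosen with earlier results of these data known, although the rule for members uses names alone. Named genes were the 4 members, the fibrosis and marker lists, the 3 genes nearest to each member with 10 or more counts, and loci sharing an arm.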

Additional observations from a re-analysis of the deposited data

How the results depend on the processing

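The choice of total moved the levels most. Scaled to 1000000 of all reads, Mir29a came to 161, Mir29c to 61.9, Mir29b-1 to 0.597, Mir29b-2 to 0.831 and the family sum to 225, since sense counts are under 47% of reads. With counts of both strands, Mir29c came to 124 CPM. Under TMM, DESeq2 size factors and counts of both strands, the other levels moved by less than the SD over the pups. The TMM factors were 0.994 for replicate 1 and 1.01 for replicate 2, so TMM could move the levels little. With 0.5 counts added, the 4 log2 ratios also moved by less than their SD. Scaling cannot change a ratio within a library, nor could counts of both strands, as the members had 0 opposite-strand counts. Leaving out 1 of 2 libraries cannot move a mean by more than the SD over the pups, so it is given as values only. Single libraries gave 303 to 391 CPM for Mir29a, 129 to 137 for Mir29c, and log2 ratios of 7.46 to 8.83 for Mir29a over Mir29b-1 and 5.91 to 6.58 for Mir29c over Mir29b-2.

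The count of genes that differed between the pups was 86 to 93 over the 5 settings run, with 27 to 35 lower in replicate 2. The 93 came from a stricter filter, at least 10 counts in each library (298 genes), which raised the share called from 14.0% to 31.2%. The adjusted p of Mir29a ran from 3.47e-07 to 1.24e-06 (exact binomial test), but every setting tests the same pair of libraries at counting error only, so this shows nothing about other hearts. With a pseudocount of 0.5 CPM the Mir29b-1 log2 ratio was -0.71, and with 5 CPM it was -0.20. With none, its CPM in replicate 2 was 0.5 of that in replicate 1. No paired analysis was possible because the series has 1 group. With 3 to 5 counts for the Mir29b loci, neither their order nor a difference between the pups could be shown at this depth, and more depth would not assign reads that fit both loci.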
